A study of Mus musculus with 6 samples.

Results

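The genes described here encode 39 nuclear-encoded subunits of respiratory complexes II, III, IV and V, measured in mouse embryonic neural stem cells with and without Pml. The rule that takes them uses gene symbols only, and the set was chosen with earlier results of these data known. The count table held 24421 gene symbols. The set takes 4 subunits of complex II, 9 of complex III, 11 of complex IV and 15 of complex V. All 39 had enough reads to be tested, among 11317 tested genes. Of the 13 respiratory subunits encoded by mitochondrial DNA, those of complex I included, 0 were found by symbol in the count table, so they were not analysed here.

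Complex II passes electrons from succinate to ubiquinone, complex III passes them from ubiquinol to cytochrome c, and complex IV, cytochrome c oxidase, passes them to oxygen. Complexes III and IV pump protons across the inner mitochondrial membrane, and complex V, the ATP synthase, lets protons flow back and makes ATP. Complex II is built from nuclear genes only, whereas complexes III, IV and V also hold subunits encoded by mitochondrial DNA. Neural stem cells are known to rely largely on glycolysis and to raise oxidative phosphorylation as they become neurons.

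The study compared 3 libraries from Pml knockout cells (Pml-/-) with 3 libraries from WT cells. Pml encodes the promyelocytic leukemia protein, which organises nuclear bodies. Both groups were primary neural stem cells of stage E13.5 (embryonic day), labelled as brain tissue. They were kept as neurospheres, free-floating balls of dividing progenitors, at 20% oxygen in medium with epidermal growth factor and fibroblast growth factor 2, each at 20 ng/ml, and were lysed 4 days after dissociation. The series title names mitochondrial integrity as 1 of its subjects. The labels give no strain or sex, do not say which part of Pml was deleted, and do not say whether replicates were separate cultures or embryos, so p-values measure the spread between these 6 libraries, which may be technical. Library preparation tagged the 3′ ends of polyadenylated transcripts, so a gene's count does not scale with its length. Levels are given as CPM, a gene's count over its library's total on a fixed scale, with library factors from the trimmed mean of M values.

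Total counts ran from 4980638 to 5917505 in the knockout libraries and from 1775152 to 4413318 in the WT libraries, the lowest being WT replicate 2. Pml had 14, 23 and 5 reads in knockout replicates 1, 2 and 3, against 36, 35 and 44 reads in WT replicates 1, 2 and 3 (log2 fold change -2.81, SE 0.661, edgeR adjusted p = 0.197). The groups did not overlap. The adjusted p of Pml was 0.00341 with DESeq2. Over all tested genes WT replicate 2 differed most, with Spearman correlations of 0.873 with WT replicate 1 and 0.789 with WT replicate 3. WT replicates 1 and 3 correlated at 0.915, and WT replicate 3 correlated with the knockout libraries at 0.929 to 0.955. In ribosomal and hepatocyte transcripts WT replicates 1 and 2 stood apart from WT replicate 3. The 45S pre-ribosomal RNA row took 41.9% and 39.8% of their counts, against 19.6% in WT replicate 3, and 14.6% to 17.6% in the knockout libraries. A list of 12 hepatocyte genes summed to 57.9 to 85.9 CPM in the knockout libraries and to 379, 630 and 113 CPM in WT replicates 1, 2 and 3. All 10 tested genes of that list were lower in the knockout at an unadjusted p under 0.05 (9.19% of all tested genes were). The groups did not overlap for 6 of the 10 (11.3% of all tested genes were lower with no overlap). In WT replicate 3 Apob and Ttr lay below every knockout library, at 0.908 and 2.95 CPM. In bulk RNA, fewer cells of a type and less RNA per cell cannot be told apart. Neural stem cell markers, a list of 10 genes, summed to 6625 to 8165 CPM in the knockout libraries and to 5539 to 7362 CPM in the WT libraries. Neuron markers (8 genes) summed to 681 to 748 CPM in the knockout and 743 to 967 CPM in WT, and oligodendrocyte lineage markers (7 genes) to 1644 to 2100 CPM and 1161 to 2050 CPM. Endothelial markers (6 genes) summed to 5.61 to 13.7 CPM in the knockout and 7.04 to 21.6 CPM in WT, with Cdh5, Cldn5 and Tek at 0 in every library. Microglial markers (8 genes) summed to at most 2.11 CPM in the knockout libraries, and to 2.98, 33.6 and 0.908 CPM in WT replicates 1, 2 and 3. Of 8 erythroid markers, 6 were at 0 in every library, the globin genes among them.

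Promoter sequences are shown for 5 genes on which the results turn: the 3 genes of ATP synthase subunit c, which encode the same mature protein from separate loci, and the genes with the lowest and the highest fold change, Atp5k and Cox7c. Each runs 5′ to 3′ from 250 bases before to 50 bases after the RefSeq start on the minus strand of GRCm38.p6, and capitals mark matches to the motifs of NRF1, YY1 and ETS factors named next. The intervals are chr11:96075582-96075881 for Atp5g1, chr15:102670998-102671297 for Atp5g2, chr2:73911277-73911576 for Atp5g3, chr5:108434350-108434649 for Atp5k and chr13:86046746-86047045 for Cox7c.
Atp5g1: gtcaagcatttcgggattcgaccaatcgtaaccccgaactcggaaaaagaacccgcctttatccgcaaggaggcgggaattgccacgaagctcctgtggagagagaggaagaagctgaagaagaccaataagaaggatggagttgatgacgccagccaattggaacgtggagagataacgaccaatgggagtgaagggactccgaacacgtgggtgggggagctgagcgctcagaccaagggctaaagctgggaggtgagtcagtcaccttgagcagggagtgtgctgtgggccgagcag
Atp5g2: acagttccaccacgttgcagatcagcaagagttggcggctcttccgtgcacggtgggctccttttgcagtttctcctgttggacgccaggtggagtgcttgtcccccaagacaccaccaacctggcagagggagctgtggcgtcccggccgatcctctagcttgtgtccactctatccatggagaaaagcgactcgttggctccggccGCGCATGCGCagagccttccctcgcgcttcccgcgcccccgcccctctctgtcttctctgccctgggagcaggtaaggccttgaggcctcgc
Atp5g3: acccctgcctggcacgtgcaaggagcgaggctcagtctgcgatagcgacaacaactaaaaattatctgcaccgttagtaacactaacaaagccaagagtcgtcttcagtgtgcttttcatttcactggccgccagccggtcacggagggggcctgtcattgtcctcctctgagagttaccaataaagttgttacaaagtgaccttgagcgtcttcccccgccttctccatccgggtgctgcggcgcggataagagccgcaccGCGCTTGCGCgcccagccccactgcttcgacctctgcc
Atp5k: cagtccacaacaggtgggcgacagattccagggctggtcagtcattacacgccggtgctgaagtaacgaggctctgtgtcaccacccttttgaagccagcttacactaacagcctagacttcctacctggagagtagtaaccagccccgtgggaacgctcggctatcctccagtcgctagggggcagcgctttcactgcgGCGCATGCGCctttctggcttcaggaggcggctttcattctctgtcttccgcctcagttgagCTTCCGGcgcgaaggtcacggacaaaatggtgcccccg
Cox7c: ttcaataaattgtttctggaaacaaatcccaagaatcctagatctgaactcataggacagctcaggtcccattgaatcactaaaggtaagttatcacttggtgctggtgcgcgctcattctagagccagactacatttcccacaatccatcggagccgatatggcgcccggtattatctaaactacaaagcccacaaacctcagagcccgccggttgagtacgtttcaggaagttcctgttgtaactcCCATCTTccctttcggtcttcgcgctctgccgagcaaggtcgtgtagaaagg

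RefSeq promoters were matched for 30 of the 39 genes. The searches covered both strands, and a base could belong to matches of more than 1 motif. A subunit gene counted if any of its promoter entries matched, whereas the share over all promoters counted single entries. Those entries were not limited to the tested genes. NRF1 (nuclear respiratory factor 1, an activator of many respiratory genes) is known to bind GCGCA, any base, then GCGC, and this run of letters stood in 10 of the 30 promoters (33.33%), against 4.6% of all 32851 promoters of the same length. The ETS core CCGGAAG, bound by factors such as GABP, stood in 12 of 30 (40%), against 8.86% of all promoters. AAGATGG, the core bound by YY1, stood in 3 of 30 (10%) against 6.34%, CCAAT in 16 of 30 (53.33%) against 37.41%, and the GC box GGGCGG in 10 of 30 (33.33%) against 35.66%. Of the sequences shown, those of Atp5g2 and Atp5g3 hold 1 NRF1 match each, that of Atp5k holds 1 NRF1 and 1 ETS match, and that of Cox7c holds 1 YY1 match. Atp5g1 holds none of these 3 motifs, although its promoter holds CCAAT. These matches are a description of the letters in these windows and not of binding.

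Of the 39 subunit genes, 27 were lower in the knockout than in WT and 12 higher (69.2% lower, against 50.3% of all tested genes), whereas scaling to library totals alone gave 16 lower and 23 higher. None passed an adjusted p under 0.05 in edgeR's quasi-likelihood test (0 of 39), where 1 of 11317 tested genes passed (0.00884%), the endosomal gene Wdfy1, named after its values were seen. The smallest adjusted p among the 39 was 0.231, for Atp5k, a subunit of the membrane part of ATP synthase. That scaling moved the median log2 fold change of all tested genes to 0.43 and that of the 39 genes to 0.13, so medians are given relative to all tested genes. The median of the 39 genes lay 0.25 below that of all tested genes (-0.25, or -0.3 with library totals alone). With the library factors it was -0.04 for complex II, -0.25 for complex III, -0.19 for complex IV and -0.52 for complex V. With any 1 library left out these medians ran from -0.21 to 0.07 for complex II, from -0.42 to -0.18 for complex III, from -0.30 to -0.12 for complex IV and from -0.56 to -0.36 for complex V.

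At an unadjusted p under 0.05, 9 of the 39 were lower (23.1%, against 9.19% of all tested genes) and 0 were higher (6.70% of all tested genes). They were Sdhb of complex II, Uqcrc1 and Uqcr10 of complex III, Cox7a2 and Cox7a2l of complex IV, and Atp5d, Atp5g1, Atp5j2 and Atp5k of complex V. The groups did not overlap for 12 genes that were lower (11.3% of all tested genes) and for 1 gene that was higher, Cox7c (12.3% of all tested genes). DESeq2 and edgeR's exact test also called 0 of the 39 at an adjusted p under 0.05, where they called 2.90% and 3.17% of all tested genes. With library quality weights, limma voom called 8 of the 39, 3 higher and 5 lower, and 11% of all tested genes. By the adjusted p-values of the authors' deposited table, none of the 39 passed (0 of 39), against 2.94% of 12349 genes with a value, and the smallest was 0.0659, for Atp5k.

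**Figure D1:**
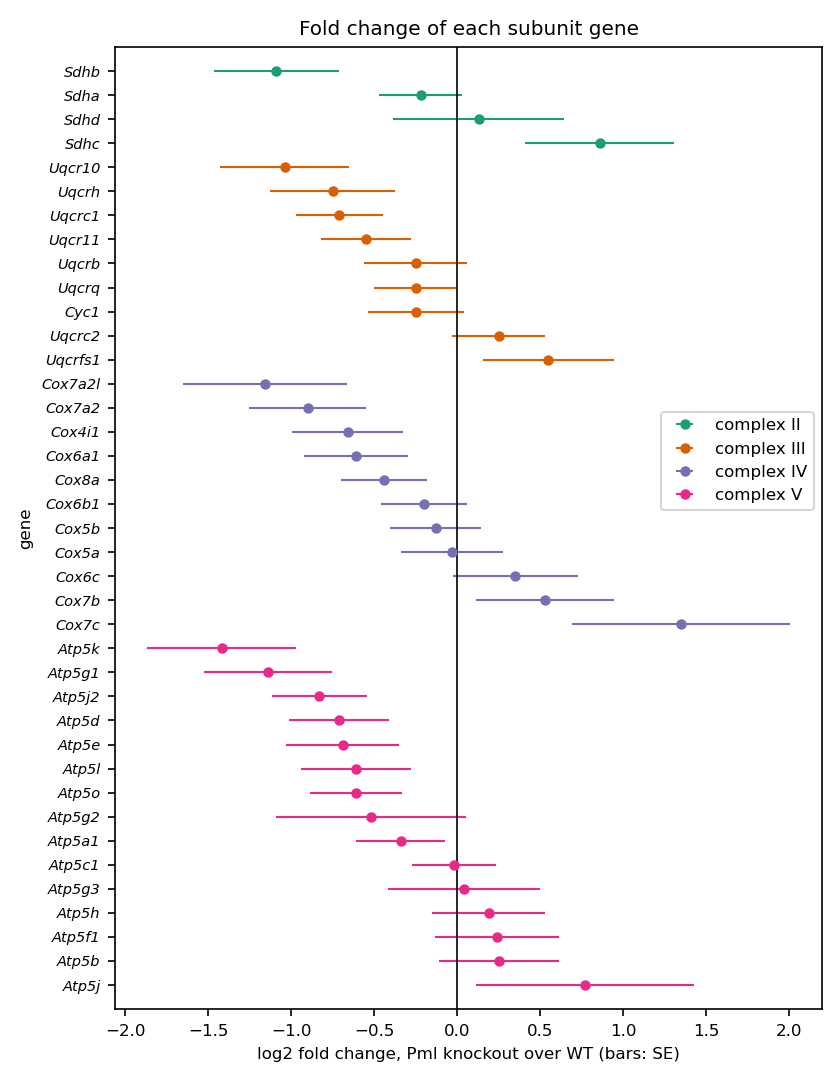
Fold change of each subunit gene, Pml knockout over WT, on the log2 scale (x axis), with genes down the page by complex and bars giving the standard error from edgeR's quasi-likelihood fit with 3 libraries per genotype. With these library factors 27 points lie below 0 and 12 above, the lowest being Atp5k at -1.42 and the highest Cox7c at 1.35. With library totals alone 16 lie below 0, and the median of all tested genes is then 0.43.

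The count of calls depended on single libraries. Without WT replicate 3, 11 of the 39 passed the adjusted threshold, 4 higher (Sdhc, Cox6c, Cox7b and Atp5j) and 7 lower (Sdhb, Uqcrc1, Cox7a2l, Atp5d, Atp5g1, Atp5j2 and Atp5k), as did 13.0% of all tested genes. In that fit 14 were lower (16.5% of all tested genes) and 6 higher (15.4% of all tested genes) at an unadjusted p under 0.05. The unadjusted count of lower genes was 5 without WT replicate 1 (6.26% of all tested genes) and 5 without WT replicate 2 (8.36%), where Cox7c was higher at that threshold (8.63% of all tested genes were). It was 3 without knockout replicate 1 (6.03%), 1 without knockout replicate 2 (4.10%) and 6 without knockout replicate 3 (4.92%). Atp5k was the 1 gene that stayed among them whichever single library was left out. With WT replicates 1 and 2 both left out, 33 of the 39 were lower than in WT replicate 3, against 47.5% of all tested genes, and 2 of the 33 were lower at an unadjusted p under 0.05 (7.37% of all tested genes). That fit assumes that the lone WT library varies as the knockout libraries do.

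Complex II, succinate dehydrogenase, also works in the tricarboxylic acid cycle. Its 4 genes split evenly, Sdha and Sdhb lower and Sdhc and Sdhd higher, against 1 lower and 3 higher with library totals alone. In that setting the median log2 fold change of the 4 genes and that of all tested genes were both 0.43. Sdhb encodes the iron-sulphur subunit and lies on the plus strand at chr4:140961203-140979193 (GENCODE M21, GRCm38, the build named mm10). It had 370, 246 and 307 CPM in knockout replicates 1, 2 and 3, against 544, 1038 and 388 CPM in WT replicates 1, 2 and 3. Every knockout library lay below every WT library, with WT replicate 3 just above knockout replicate 1. The log2 fold change was -1.09 (SE 0.376, edgeR adjusted p = 0.239) and was -0.58 without WT replicate 2 and -0.34 against WT replicate 3 alone.

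Sdhc, a membrane anchor that binds haem and ubiquinone together with Sdhd, lies on the minus strand at chr1:171127165-171150603. Sdhc had 239, 253 and 335 CPM in the knockout libraries, against 155, 53.6 and 243 CPM in the WT libraries (log2 fold change 0.86, SE 0.449, edgeR adjusted p = 0.373). WT replicate 2 was far below the rest, and WT replicate 3 lay inside the knockout range. The log2 fold change of Sdhc was 0.48 without WT replicate 2 and 0.18 against WT replicate 3 alone. Sdha, the flavoprotein that oxidises succinate, averaged 230 ± 18.9 CPM in the knockout and 269 ± 42.9 CPM in WT (SD, n = 3 each). Sdhd had 31 to 60 reads in the knockout libraries and 8 to 27 in the WT libraries, with overlapping groups in CPM (log2 fold change 0.13). Sdhd was at -0.19 without WT replicate 3, and likewise without knockout replicate 3.

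Complex III had 7 genes lower and 2 higher, against 4 lower and 5 higher with library totals alone. In that setting its median still lay 0.3 below that of all tested genes. Uqcrc1, a core protein on the matrix side, had 124, 116 and 143 CPM in the knockout libraries, against 221, 248 and 161 CPM in the WT libraries (log2 fold change -0.71, SE 0.262, edgeR adjusted p = 0.244). Uqcr10, a small subunit, had 285, 234 and 300 CPM in the knockout libraries, against 351, 945 and 389 CPM in the WT libraries (log2 fold change -1.04, SE 0.388, edgeR adjusted p = 0.251). Neither gene's groups overlapped, and for Uqcr10 WT replicate 2 stood far above the other WT libraries. Without WT replicate 2 the log2 fold change was -0.57 for Uqcrc1 and -0.43 for Uqcr10, and against WT replicate 3 alone -0.34 and -0.51. The highest fold change of complex III was that of Uqcrfs1, the Rieske iron-sulphur protein, with 201, 171 and 228 CPM in the knockout libraries, against 138, 59.2 and 211 CPM in the WT libraries. WT replicate 3 lay inside the knockout range, and the log2 fold change of Uqcrfs1 was 0.55 (SE 0.397) over all libraries, 0.21 without WT replicate 2 and -0.08 against WT replicate 3 alone.

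The other lower genes of complex III were the cytochrome subunit Cyc1 (log2 fold change -0.25) and the small subunits Uqcrh (-0.75), Uqcr11 (-0.55), Uqcrb (-0.25) and Uqcrq (-0.25), all with overlapping groups. Uqcrc2, the other core protein, was at 0.25. Without WT replicate 2 the log2 fold change was -0.19 for Uqcrh and 0.09 for Uqcrc2, and against WT replicate 3 alone 0.02 and -0.13. With library totals alone Cyc1, Uqcrb and Uqcrq were at 0.13, 0.17 and 0.17. The reads of Uqcrh, Uqcr11 and Uqcrb are less certain, because 1, 1 and 3 annotated pseudogenes matched their transcript ends at 95% identity or more over at least 100 of the last 300 bases. Uqcrc2 is overlapped by Pdzd9 on the other strand.

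Complex IV had 8 genes lower and 3 higher, against 4 lower and 7 higher with library totals alone. Its median in that setting still lay 0.2 below that of all tested genes. Cox7a2 and Cox7a2l are related genes. Cox7a2 encodes the form of subunit 7a used in most tissues, and Cox7a2l encodes a factor that joins complexes III and IV into supercomplexes. Cox7a2 had 456, 403 and 504 CPM in the knockout libraries, against 623, 1324 and 592 CPM in the WT libraries (log2 fold change -0.90, SE 0.352, edgeR adjusted p = 0.266). Cox7a2l had 82.9, 91.7 and 73.2 CPM in the knockout libraries, against 150, 344 and 64.0 CPM in the WT libraries (log2 fold change -1.16, SE 0.494, edgeR adjusted p = 0.296). For Cox7a2 the groups did not overlap, while for Cox7a2l WT replicate 3 was the lowest of all 6 libraries. Without WT replicate 2 Cox7a2 was at -0.41 and Cox7a2l at -0.36, and against WT replicate 3 alone they were at -0.39 and 0.36.

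Cox7c, a small nuclear-encoded subunit at chr13:86044816-86046904 on the minus strand, had the highest fold change of the 39 genes. It had 225, 259 and 336 CPM in the knockout libraries, against 118, 12 and 186 CPM in the WT libraries. The read counts behind these levels were 1493, 1571 and 2251 in the knockout libraries, and 398, 15 and 818 in the WT libraries. Every knockout library lay above every WT library, and Cox7c was 15.5-fold higher in WT replicate 3 than in WT replicate 2. The log2 fold change was 1.35 (SE 0.656, edgeR adjusted p = 0.343), and it was 0.85 without WT replicate 2 and 0.55 against WT replicate 3 alone. The 3′ ends of 3 annotated pseudogenes matched that of Cox7c, so its reads are less certain.

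Cox6a1, the form of subunit 6a used outside heart and muscle, and Cox8a, the form of subunit 8 used in most tissues, were lower with no overlap. Cox6a1 had 569, 508 and 596 CPM in the knockout libraries, against 707, 1224 and 621 CPM in the WT libraries (log2 fold change -0.61, SE 0.316). The log2 fold change of Cox6a1 was -0.24 without WT replicate 2, -0.16 against WT replicate 3 alone and -0.09 with library totals alone. Cox8a had 267, 284 and 377 CPM in the knockout libraries, against 473, 401 and 387 CPM in the WT libraries (log2 fold change -0.44, SE 0.26, but 0.03 with library totals alone). The highest knockout library and the lowest WT library were close together for both genes. The remaining genes all had overlapping groups: Cox4i1 (log2 fold change -0.66), Cox6b1 (-0.20), Cox5b (-0.13) and Cox5a (-0.03) were lower, and Cox6c (0.35) and Cox7b (0.53) were higher. Without WT replicate 2 Cox6c was at 0.14, Cox7b at 0.20 and Cox4i1 at -0.25, and against WT replicate 3 alone they were at -0.39, -0.22 and -0.05. With library totals alone Cox5a, Cox5b and Cox6b1 were at 0.40, 0.29 and 0.23. Pseudogenes matched the ends of Cox5a and Cox6c, 1 each, another gene's transcript matched that of Cox6a1, and Cox5a is overlapped on the other strand by Gm26631.

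**Figure D2:**
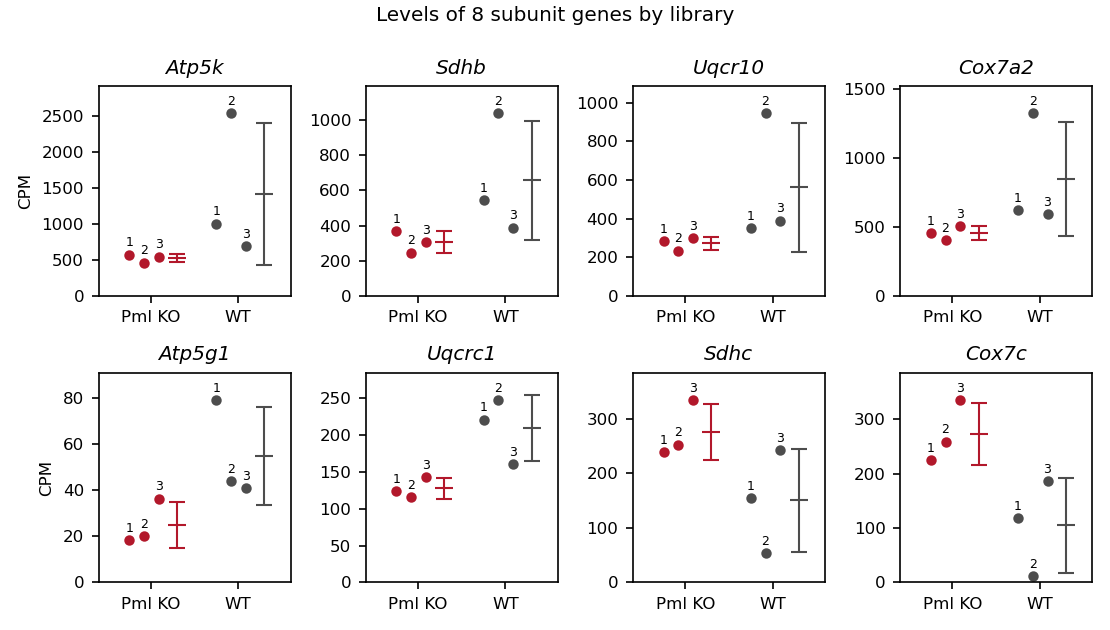
Levels of 8 subunit genes in CPM (y axis, starting at 0) in each Pml knockout and WT library, numbered by replicate, with the mean and SD of 3 libraries beside the points. In the first 6 panels every knockout library lies below every WT library; for Sdhc and Cox7c the knockout libraries are higher on average, and WT replicate 2 is the lowest library at 53.6 and 12 CPM.

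Complex V had 10 genes lower and 5 higher, against 7 lower and 8 higher with library totals alone. Its median in that setting still lay 0.38 below that of all tested genes. Atp5k encodes subunit e, which helps ATP synthase dimers form in the inner membrane, and lies on the minus strand at chr5:108433244-108434448. It had 572, 463 and 546 CPM in the knockout libraries, against 1004, 2532 and 691 CPM in the WT libraries. The mean was 527 ± 57.1 CPM in the knockout and 1409 ± 985 CPM in WT (SD, n = 3 each). The groups did not overlap, and WT replicate 2 was 3.66-fold above WT replicate 3. The log2 fold change was -1.42 (SE 0.448, unadjusted p = 0.00998, edgeR adjusted p = 0.231), the lowest of the 39 genes, and it was -0.67 without WT replicate 2 and -0.40 against WT replicate 3 alone. The 3′ end of Atp5k matched 1 pseudogene.

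Atp5j2, another membrane subunit known as f, had 313, 270 and 324 CPM in the knockout libraries, against 484, 711 and 418 CPM in the WT libraries (log2 fold change -0.83, SE 0.284, edgeR adjusted p = 0.239). Atp5d, the delta subunit of the central stalk, had 153, 175 and 193 CPM in the knockout libraries, against 297, 373 and 183 CPM in the WT libraries (log2 fold change -0.71, SE 0.301, edgeR adjusted p = 0.294). Atp5e, the epsilon subunit of the same stalk, had 273, 206 and 278 CPM in the knockout libraries, against 305, 629 and 295 CPM in the WT libraries (log2 fold change -0.69, SE 0.34). Atp5j2 and Atp5e had no overlap between groups, whereas for Atp5d WT replicate 3 lay inside the knockout range. Without WT replicate 2 the log2 fold changes were -0.56 for Atp5j2, -0.46 for Atp5d and -0.24 for Atp5e, and against WT replicate 3 alone -0.47, -0.08 and -0.23. Atp5j2 also had 1 pseudogene with a matching end.

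Of the catalytic head, the alpha subunit Atp5a1 had 1020, 797 and 1064 CPM in the knockout libraries, against 1176, 1321 and 1157 CPM in the WT libraries (log2 fold change -0.34, SE 0.268, but 0.12 with library totals alone). Atp5o, the stalk subunit that holds the head in place, had 743, 532 and 662 CPM in the knockout libraries, against 1069, 1075 and 811 CPM in the WT libraries (log2 fold change -0.61, SE 0.276). For both genes the groups did not overlap. The 3 WT libraries lay close together for Atp5a1 (SD 89.5 CPM, against 143 CPM in the knockout). For Atp5o WT replicate 3 lay below the other WT libraries (SD 151 CPM, against 106 CPM in the knockout). The beta subunit Atp5b was at a log2 fold change of 0.25 and the gamma subunit Atp5c1 at -0.02, both with overlapping groups. Atp5b was at -0.05 without WT replicate 2 and at -0.23 against WT replicate 3 alone, and Atp5c1 was at 0.42 with library totals alone.

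Atp5j, subunit F6 of the peripheral stalk, had the highest fold change of complex V. It had 92.1, 118 and 157 CPM in the knockout libraries, against 50.3, 10.4 and 150 CPM in the WT libraries (log2 fold change 0.77, SE 0.655, edgeR adjusted p = 0.579). WT replicate 3 lay inside the knockout range and 14.4-fold above WT replicate 2, which had 13 reads. Atp5j was at 0.29 without WT replicate 2 and at -0.30 against WT replicate 3 alone. The other peripheral stalk genes Atp5f1 and Atp5h were at 0.24 and 0.19, and the membrane subunit Atp5l at -0.61, all with overlapping groups. Without WT replicate 2 Atp5f1 and Atp5h were at -0.09 and -0.10, and against WT replicate 3 alone at -0.14 and -0.03. Atp5l had 11 matching pseudogenes and another matching gene, Atp5h had 2 matching pseudogenes and Atp5o had 1. The end of Atp5o is also overlapped on the same strand by another annotated gene entry of the same name.

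**Figure D3:**
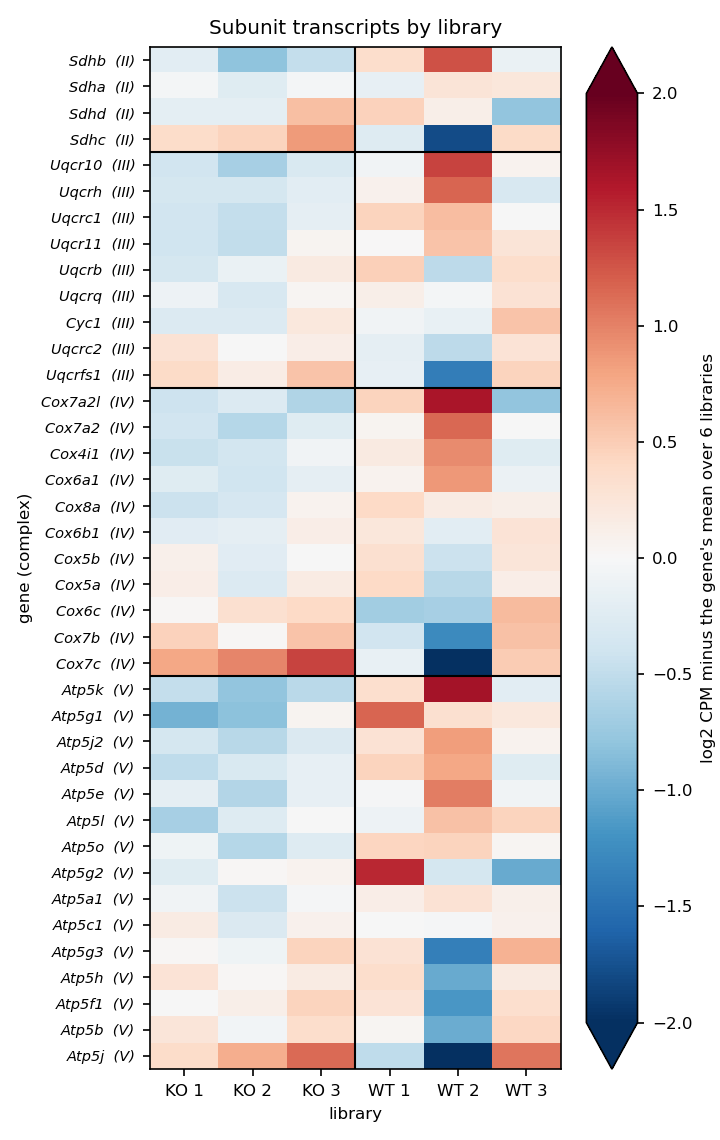
Level of each of the 39 genes in each library as log2 CPM minus the gene's mean over 6 libraries (colour, cut at -2 and 2), with knockout libraries left and WT libraries right of the vertical line and genes down the page by complex and fold change. WT replicate 2 has the strongest colours in both directions, and 29 of the 39 genes have WT replicate 2 as the WT library farthest from the knockout mean.

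Atp5g1, Atp5g2 and Atp5g3 encode the same mature subunit c, the protein of the rotating ring, with different import sequences. Atp5g1 had 18.2, 20.0 and 36.4 CPM in the knockout libraries, against 79.2, 44.0 and 40.9 CPM in the WT libraries (log2 fold change -1.14, SE 0.385, edgeR adjusted p = 0.238). Every knockout library lay below every WT library, and Atp5g1 was at -0.72 against WT replicate 3 alone. Atp5g2 had 75, 82 and 94 reads in the knockout libraries, against 127, 13 and 29 reads in the WT libraries (log2 fold change -0.52, SE 0.573). In CPM the knockout libraries ran from 11.3 to 14.0, whereas WT replicate 1 was above them at 37.8 and WT replicates 2 and 3 were below them at 10.4 and 6.58. The log2 fold change of Atp5g2 was 0.67 without WT replicate 1 and 0.05 with library totals alone. Atp5g3 had 1419, 1315 and 1887 CPM in the knockout libraries, against 1690, 538 and 2258 CPM in the WT libraries (log2 fold change 0.04, SE 0.457). Its groups overlapped, and the log2 fold change of Atp5g3 was -0.35 without WT replicate 2.

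Shares of the subunit c reads do not depend on library scaling. Atp5g3 gave 98.0%, 97.5% and 97.4% of them in the knockout libraries, against 93.5%, 90.8% and 97.9% in the WT libraries. Atp5g1 gave 1.26% (95% exact Clopper-Pearson interval 1.04 to 1.5), 1.48% (1.23 to 1.77) and 1.88% (1.65 to 2.13) in knockout replicates 1, 2 and 3, against 4.38% (3.88 to 4.93), 7.42% (5.64 to 9.55) and 1.77% (1.52 to 2.05) in WT replicates 1, 2 and 3. The share of Atp5g1 in WT replicate 3 lay inside the knockout range, so the groups overlapped. It averaged 1.54% ± 0.315 in the knockout and 4.53% ± 2.83 in WT (SD, n = 3 each). Atp5g2 averaged 0.835% ± 0.148 in the knockout and 1.38% ± 0.96 in WT. These intervals cover counting error only. The end of Atp5g2 matched 1 pseudogene and 1 other gene.

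Summed over its genes, complex V had 6610, 5578 and 7299 CPM in the knockout libraries, against 8088, 8349 and 8181 CPM in the WT libraries. The SD of this sum was 866 CPM over the knockout libraries and 132 CPM over the WT libraries, although the WT libraries differed in single genes. In WT replicate 2 Atp5g3 was at 538 CPM and Atp5k at 2532 CPM, against 2258 and 691 CPM in WT replicate 3. These opposite differences offset each other in the sum. Complex II summed to 856, 713 and 892 CPM in the knockout libraries and 927, 1395 and 925 CPM in the WT libraries, and complex III to 2220, 2025 and 2481 CPM and 2623, 3827 and 2727 CPM. Complex IV summed to 3629, 3455 and 4234 CPM in the knockout libraries and 4223, 5279 and 4314 CPM in the WT libraries. The groups did not overlap for complexes II, III and V, and for complex IV knockout replicate 3 lay above WT replicate 1. The log2 ratio of the means was -0.40 for complex II, -0.45 for complex III, -0.29 for complex IV and -0.34 for complex V. With library totals alone these were 0.09, 0.03, 0.18 and 0.12, against a median log2 fold change of 0.43 over all tested genes. All 39 genes made up 1.81%, 1.68% and 2.14% of the counts outside the 45S row in the knockout libraries, against 2.08%, 2.21% and 2.25% in the WT libraries, and these ranges overlapped.

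**Figure D4:**
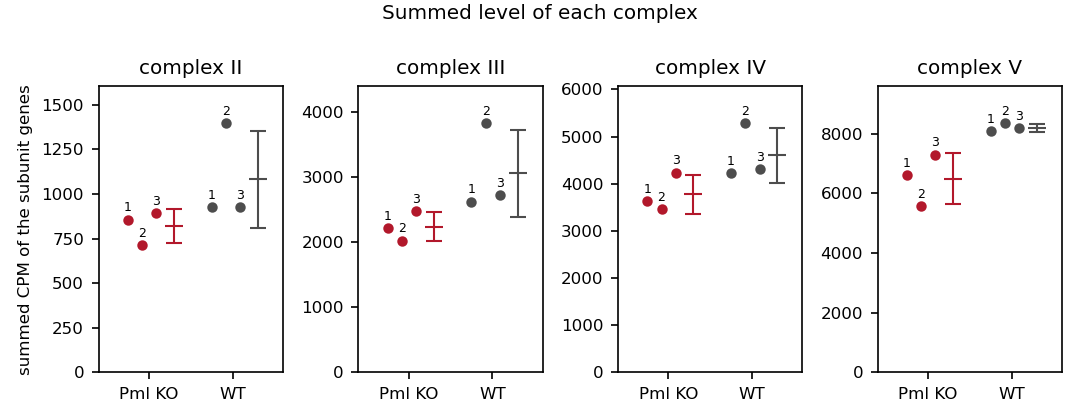
Summed CPM of the subunit genes of each complex (y axis, starting at 0) in each Pml knockout and WT library, numbered by replicate, with the mean and SD of 3 libraries beside the points. With these library factors complex V averages 6496 CPM in the knockout and 8206 CPM in WT. With library totals alone the knockout means are higher in all 4 complexes, and the median log2 fold change of all tested genes is then 0.43.

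The WT libraries differed among themselves more than the knockout libraries did. The SD of log2 CPM was larger in WT for 32 of the 39 genes (82.1%, against 83.1% of all tested genes), with a median of 0.212 in the knockout and 0.583 in WT. WT replicate 1 lay above every knockout library for 23 of the 39 genes (59.0%, against 37.0% of all tested genes) and below every knockout library for 7 (17.9% against 38.0%). WT replicate 2 lay above for 19 (48.7% against 39.1%) and below for 15 (38.5% against 44.8%). WT replicate 3 lay above for 24 (61.5% against 32.2%) and below for 4 (10.3% against 33.9%). WT replicate 2 was the WT library farthest from the knockout mean for 29 of the 39 (74.4%, against 59.0% of all tested genes).

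These deviations moved with the base composition of the transcript ends, a comparison chosen after the values were seen. The GC content of the last 200 transcript bases ran from 29.5% in Uqcrfs1 to 62.5% in Uqcrc1. Across the 39 genes, which share the libraries, its Spearman correlation with the log2 deviation of a WT library from the knockout mean was 0.54 in WT replicate 1, 0.59 in WT replicate 2 and 0.08 in WT replicate 3. With the log2 fold change the correlation was -0.61 across the 39 genes and -0.44 across the 10652 tested genes with an annotated transcript (94.1%). Without WT replicates 1 and 2 it was -0.09 in both sets.

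**Figure D5:**
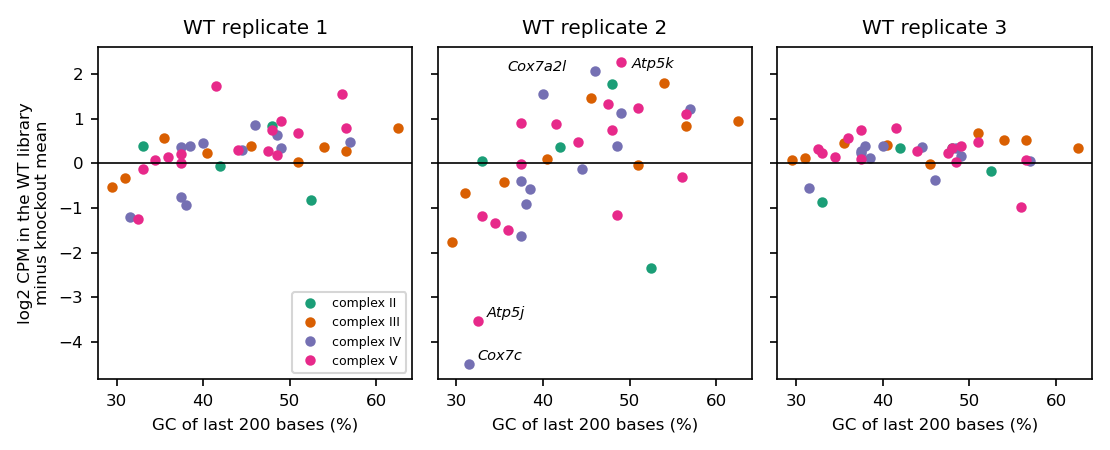
GC content of the last 200 transcript bases (x axis, percent) against the log2 CPM of each WT library minus the knockout mean (y axis) for the 39 genes, coloured by complex, with 1 panel per WT library. In WT replicate 2 Cox7c at 31.5% GC is at -4.49 and Atp5k at 49.0% GC is at 2.27, while in WT replicate 3 they are at -0.54 and 0.40.

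Of the 15 genes below 40% GC, 10 were higher in the knockout and 5 lower with these library factors, and the median log2 fold change was 0.24. Against WT replicate 3 alone 2 were higher and 13 lower, with a median of -0.22. Of the 24 genes at 40% GC or above, 2 were higher and 22 lower, with a median of -0.63, and against WT replicate 3 alone 4 were higher and 20 lower, with a median of -0.34. Over all tested genes the medians were 0.24 below 40% GC and -0.27 at or above it. The 15 genes below 40% GC summed to 5555, 4999 and 6549 CPM in the knockout libraries, against 5332, 2711 and 6946 CPM in the WT libraries. The 24 others summed to 7760, 6772 and 8358 CPM in the knockout libraries, against 10529, 16138 and 9202 CPM in the WT libraries. The part that base composition, the 45S reads or the hepatocyte transcripts had in the fold changes was not tested.

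Assembly factors insert haem, copper and iron-sulphur clusters into these complexes. None of the tested assembly factors passed an adjusted p under 0.05 in edgeR's test. For complex IV, 9 of 23 tested assembly factors were higher and 14 lower (60.9% lower, against 50.3% of all tested genes). At an unadjusted p under 0.05, 2 were higher (6.70% of all tested genes were) and 4 lower (9.19% of all tested genes were). With library totals alone 13 were higher and 10 lower, and their median lay 0.22 below that of all tested genes. Cox10, which makes haem for complex IV, had 47.1, 33.0 and 49.1 CPM in the knockout libraries, against 84.5, 132 and 72.9 CPM in the WT libraries (log2 fold change -1.15, SE 0.313, edgeR adjusted p = 0.212). Its groups did not overlap, and the adjusted p of Cox10 was 0.0408 with DESeq2 and 0.0407 with edgeR's exact test. Cox17, a copper chaperone, had 67.4, 52.4 and 77.3 CPM in the knockout libraries, against 22.9, 4.8 and 39.7 CPM in the WT libraries (log2 fold change 1.48, SE 0.523, edgeR adjusted p = 0.24). Its groups did not overlap either, and WT replicate 2 had 6 reads.

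Coa3, which stabilises the newly made Cox1 protein, was at a log2 fold change of -1.12 (SE 0.343), and Cmc2, a small protein needed for complex IV, at -0.85 (SE 0.31), both with no overlap. Coa3 and Cmc2 were at -0.70 and -0.55 without WT replicate 2, and against WT replicate 3 alone at -0.45 and -0.46. Cox10 and Cox17 were at -0.76 and 0.72 against WT replicate 3 alone. Of 3 tested assembly factors of complex II, Sdhaf2 (log2 fold change 0.56) and Sdhaf4 (1.02) were higher, with overlapping groups, and Sdhaf1 was lower, also with library totals alone. Sdhaf1, which helps deliver iron-sulphur clusters to the Sdhb protein, had 41.4, 44.9 and 51.5 CPM in the knockout libraries, against 64.3, 118 and 76.3 CPM in the WT libraries (log2 fold change -0.90, SE 0.297, edgeR adjusted p = 0.238). It was at -0.61 without WT replicate 2. Sdhaf1 and Sdhb were both lower in every knockout library than in every WT library. All 6 tested assembly factors of complex III were lower (50.3% of all tested genes were), 0 of them at an unadjusted p under 0.05 (9.19% of all tested genes were). With library totals alone 4 were higher and 2 lower, and their median lay 0.32 below that of all tested genes. Of 3 for complex V, 2 were higher and 1 lower. At that threshold 0 of these 3 were called, against 9.19% of all tested genes lower and 6.70% higher. With library totals alone all 3 were higher, and their median lay 0.1 above that of all tested genes.

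Of 9 other tested subunits or tissue-specific forms, 4 were higher and 5 lower, with 0 past the adjusted threshold. At an unadjusted p under 0.05, 3 were higher (6.70% of all tested genes were) and 0 lower (9.19% of all tested genes were). Of these 3, Cox7a1 and Atp5s met the count filter only with their knockout libraries, in which they were high. That they were tested thus depended on the direction of their difference. Cox7a1, the heart and muscle form of the subunit that Cox7a2 also encodes, had 42, 19 and 27 reads in the knockout libraries, against 4, 2 and 3 reads in the WT libraries. In CPM these were 6.32, 3.13 and 4.03 against 1.19, 1.6 and 0.681 (log2 fold change 2.07, SE 0.681, edgeR adjusted p = 0.238). Usmg5, a small membrane subunit of ATP synthase, had 188, 200 and 262 CPM in the knockout libraries, against 112, 105 and 165 CPM in the WT libraries (log2 fold change 0.76, SE 0.28, edgeR adjusted p = 0.245). Atp5s, a factor linked to ATP synthase coupling, had 61, 33 and 58 reads in the knockout libraries, against 2, 1 and 22 reads in the WT libraries. In CPM these were 9.18, 5.44 and 8.65 against 0.595, 0.799 and 4.99, with WT replicate 3 just below knockout replicate 2. The log2 fold change of Atp5s was 1.67 (SE 0.715, edgeR adjusted p = 0.298). In all 3 genes every knockout library lay above every WT library, and against WT replicate 3 alone the log2 fold changes were 2.68 for Cox7a1, 0.38 for Usmg5 and 0.63 for Atp5s. The groups also did not overlap for Cycs, which encodes cytochrome c (log2 fold change -0.61), and 2010107E04Rik (-0.50), both lower in the knockout. Of 9 regulators of respiratory genes tested, 6 were higher and 3 lower (50.3% of all tested genes were lower). With library totals alone all 9 were higher, and their median lay 0.11 above that of all tested genes. At an unadjusted p under 0.05, 0 of the 9 were called, against 9.19% of all tested genes lower and 6.70% higher. Ppargc1a, a coactivator of mitochondrial biogenesis that was chosen after its values were seen, had 87.9, 81.3 and 98.6 CPM in the knockout libraries, against 53.9, 67.9 and 62.4 CPM in the WT libraries, with no overlap (log2 fold change 0.54, SE 0.25).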

How the data were processed

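FastQC, HISAT2, HTSeq, edgeR and the mm10 build are named by the submitters' processing notes; versions, annotation and strand setting are not stated there. The authors' deposited file gives raw read counts per gene, and a normalized score per library that was not used here. The log2 fold changes and p-values that the authors deposited appear only where named as theirs. Per-sample columns outside the mapped ones numbered 0. RNA had an integrity number above 7, and libraries took 20 to 24 PCR cycles, per the labels' protocols; no molecular identifiers are named.

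The 39 genes and the other lists were chosen with earlier results of these data known. Counts were fitted with edgeR 4.0.16 under R 4.3.3, with limma 3.58.1 and DESeq2 1.42.0 as alternatives. Genes passed edgeR's default filter, which needs at least 15 reads in total. It also sets a CPM cutoff, the value that 10 reads give in a library of median size. As many libraries as the smaller group holds must reach that cutoff. The robust quasi-likelihood F test compared Pml knockout with WT and held no covariate. Its p-values were Benjamini-Hochberg adjusted over 11317 genes with a threshold of 0.05. The procedure was first run on simulated data that gave each gene the same spread in both groups. That run did not cover the wider spread of the WT libraries. The standard error is the log2 fold change divided by the square root of F. The exact permutation test was not used for single values, because 3 libraries against 3 cannot give p below 0.1. Values per library were printed for genes with an unadjusted p under 0.05, no overlap between groups or the extreme fold changes of a complex, for the subunit c genes and for up to 4 genes per other list. Transcript ends come from GENCODE M21 (GRCm38) and promoters from RefSeq (GRCm38.p6). Alternatives were 3 other library scalings, 2 other count filters, 4 other tests, the 45S row left out, the replicate number as a block, each library left out, and WT replicates 1 and 2 left out together.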

Additional observations from a re-analysis of the deposited data

How the results depend on the processing

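The number of genes passing, 1 in the edgeR fit, was 0 with DESeq2's size factors, library totals, limma voom, a minimum of 5 CPM or the 45S row left out. It was 3 with no count filter, 328 with DESeq2, 359 with edgeR's exact test, 1242 with voom and quality weights, 142 without WT replicates 1 and 2, and 0 to 1526 with 1 library left out. Of the 39 subunit genes, 8 passed with voom and quality weights and 0 to 11 with 1 library left out, the 11 being without WT replicate 3. The labels do not say that replicate numbers pair libraries, so the numbers were not taken as pairs. The deviations of same-numbered libraries had correlations of -0.003, 0.067 and 0.188, which with 3 libraries per group cannot exclude pairing. The submitters' library names number the knockout libraries differently from the replicates, and a block by those names was not fitted. With the replicate number as a block 2 genes passed (Wdfy1 and Rps19-ps3), 0 of them among the 39.

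Relative to all tested genes, the median of complex V was -0.34 with voom and quality weights, -0.31 without WT replicates 1 and 2, and -0.56 to -0.36 with 1 library left out. That of complex III was -0.45 without WT replicates 1 and 2, and that of all 39 genes ran from -0.41 to -0.21 with 1 library left out. With library totals the log2 ratios of summed levels were 0.09, 0.03, 0.18 and 0.12 for complexes II to V and 0.12 for all 39. The median log2 fold change of all tested genes was 0.43 in that setting. Without WT replicates 1 and 2 the log2 fold change changed sign for 12 of the 39 genes, Uqcrfs1 (-0.08), Uqcrc2 (-0.13), Uqcrh (0.02), Cox6c (-0.39), Cox7a2l (0.36), Cox7b (-0.22), Atp5b (-0.23), Atp5f1 (-0.14), Atp5g2 (0.97), Atp5g3 (-0.56), Atp5h (-0.03) and Atp5j (-0.30). With library totals it changed sign for 11, Sdha (0.21), Cyc1 (0.13), Uqcrb (0.17), Uqcrq (0.17), Cox5a (0.40), Cox5b (0.29), Cox6b1 (0.23), Cox8a (0.03), Atp5a1 (0.12), Atp5c1 (0.42) and Atp5g2 (0.05). With 1 library left out between 0 and 4 of the 39 changed sign, and the log2 fold change ran from -0.96 to 0.67 for Atp5g2 and from -0.35 to 0.48 for Atp5g3, whose sign also turned without knockout replicate 3 (-0.13). The cause was not tested. WT replicate 2, at 1775152 counts, limits the precision: 15 reads of Cox7c and 13 each of Atp5j and Atp5g2 stand behind its levels.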
